A study of Mus musculus with 12 samples.

Results

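The effect of 5-azacitidine given alone was read from the bone marrow of 6 mice, 3 treated with the drug and 3 with vehicle, out of 12 mice sequenced in all. The libraries were chosen by the agent each label names, and no expression value entered that choice. Every mouse, controls included, carried the genotype Shp2E76K/+;LysM-Cre+ on the C57Bl/6J strain, and the mice were 12 to 14 weeks old and of both sexes. The mutation makes the phosphatase Shp2, encoded by Ptpn11, overactive, and Cre expressed from the Lyz2 locus switches it on in myeloid cells, so the lymphoid and stromal cells of the same marrow are not the direct target. Treated mice had 5 intraperitoneal doses of 5 mg/kg over 4 weeks. The composition and route of the vehicle, and the time from the last dose to harvest, are unknown here. The other 6 mice formed a second pair of groups. Of these, 3 were given 20 oral doses of 5 mg/kg of the MEK inhibitor PD-901 over 4 weeks, and 3 were given both drugs at the same doses. This pair shows what 5-azacitidine did in mice that share no library with the first 6. Total RNA of marrow cells was sequenced, and the values below are read counts per gene scaled to library size with TMM factors and given as CPM.

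5-Azacitidine is a cytidine analogue that cells phosphorylate and build into RNA and, after reduction of the ribose, into DNA. In DNA it traps the methyltransferase Dnmt1, so that methylation is lost as cells divide, and in RNA it disturbs protein synthesis. The drug is used in myelodysplastic syndromes, acute myeloid leukaemia and juvenile myelomonocytic leukaemia, a childhood disease of the Ras pathway in which monocytes and granulocytes accumulate and of which these mice are a model.

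Some libraries stood apart before any comparison. The vehicle libraries held 19006018, 20309847 and 23084859 counts, and those of 5-azacitidine 15356919, 16313816 and 23278572. Although the labels describe separate mice, 5 of the 12 libraries held Xist, which female cells make from their silent X, together with Y-linked RNA. These were vehicle replicates 1 and 3, PD-901 replicates 2 and 3 and 5-azacitidine replicate 2. Vehicle replicate 2 held Xist only, and 5-azacitidine replicates 1 and 3 held Y-linked RNA only, so sex-linked RNA was unequal between the groups. Lyz2, the lysozyme gene of myeloid cells that carries the Cre, stood at 172, 147 and 3228 CPM with vehicle and 2773, 3389 and 1807 CPM with 5-azacitidine, low in vehicle replicates 1 and 2. Mitochondrial transcripts took 1.16, 1.29 and 1.19% of vehicle counts and 1.72, 1.39 and 1.24% of treated counts. Marrow markers were present in every library, among them the granule genes Mpo and Elane and the monocyte gene Ly6c2. The part of sex-linked RNA and of Lyz2 in the results was not tested. Fits without the 5 libraries, and with a sex marker or Lyz2 as a covariate, are given beside the results they move most. Leaving out the 5 sets vehicle replicate 2, with Xist only, against 5-azacitidine replicates 1 and 3, with Y-linked RNA only. In that fit drug and sex cannot be told apart against vehicle, so it is no check on sex-linked RNA. The p-values below measure the spread between these samples. Fewer cells of a type and less RNA per cell cannot be told apart in bulk marrow.

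Against vehicle, 5-azacitidine moved 1 gene past the adjusted threshold of 0.05 of edgeR's quasi-likelihood test, the chaperone gene Hsph1, which rose. That is 0.00572% of the 17475 genes tested, and 0 genes fell (0%). A further 59 genes had an adjusted p under 0.1, for 28 higher and 32 lower in all. At an unadjusted p under 0.05 there were 2673 genes, or 15.3%, with 1412 higher (8.08%) and 1261 lower (7.22%), where 874 would be expected without any difference. The 3 treated libraries lay wholly above the 3 vehicle libraries for 10.8% of genes and wholly below for 9.77%, and the median log2 difference over all genes was -0.01. With DESeq2, which gave an adjusted p to 12729 genes, there were 291 calls upward (2.29%) and 322 downward (2.53%), and with limma-voom 2 upward and 0 downward. Single libraries moved the edgeR count as well. It was 32 higher and 74 lower without 5-azacitidine replicate 2, 4 and 2 without vehicle replicate 3, 21 and 30 without combination replicate 2, and 10 and 14 without combination replicate 3. Without PD-901 replicate 2 it was 2 higher and 0 lower, and without vehicle replicate 1 or vehicle replicate 2 it was 0 and 0. Without the 5 libraries of mixed sex-linked RNA the 5 calls were the 4 Y-linked genes used as markers and Xist, with 1 vehicle mouse left. At an unadjusted p under 0.05 that fit of 20032 genes held 402 higher (2.01%) and 758 lower (3.78%), so list counts from it are read against these shares.

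**Figure D1:**
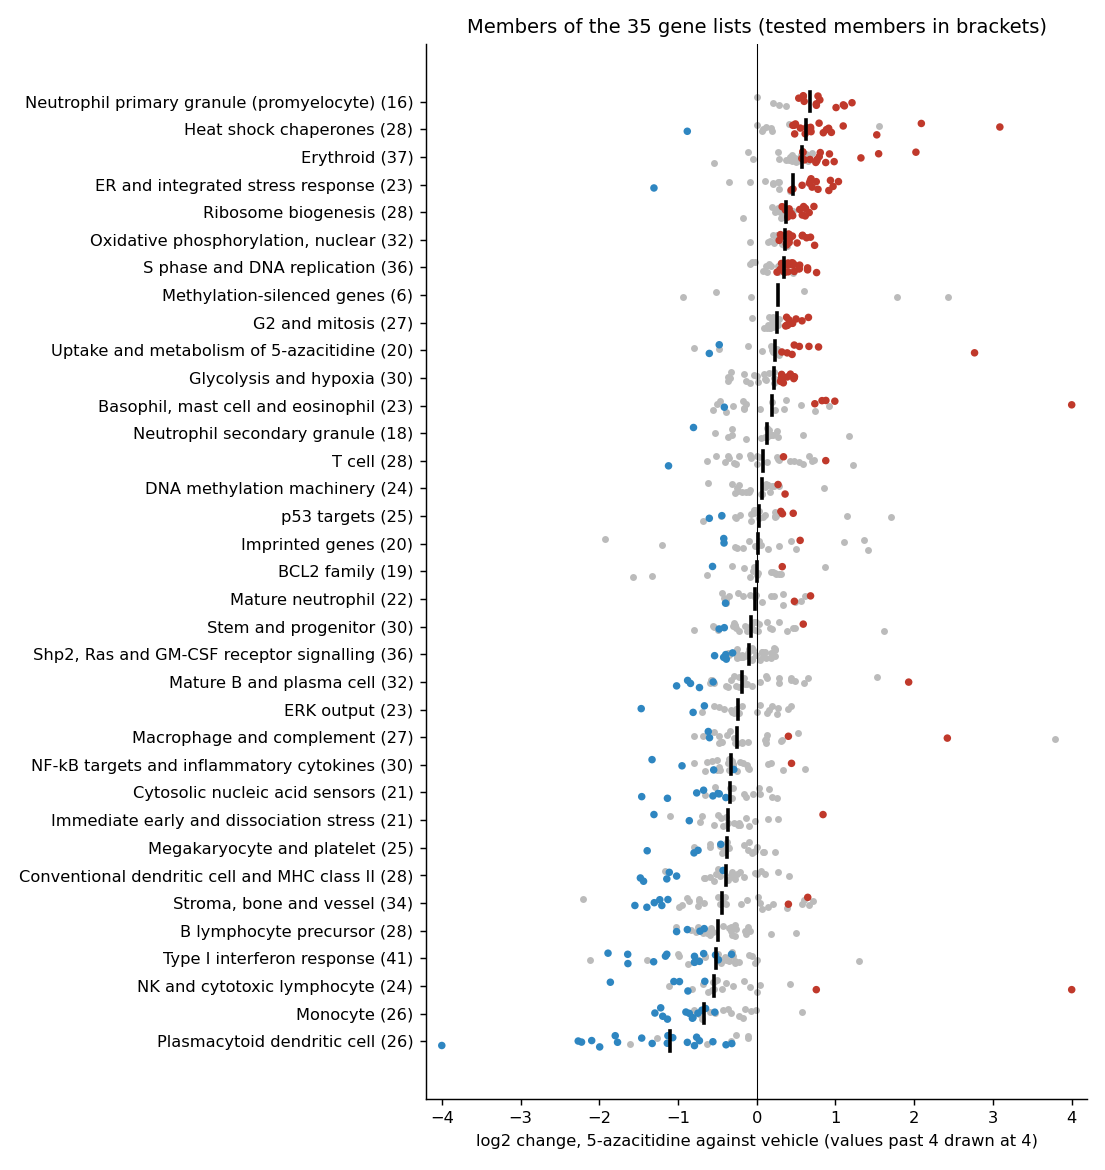
Each point is the log2 difference between 5-azacitidine and vehicle (3 mice a side) of 1 tested gene in 1 of 35 gene lists, ordered by the list median (black bar), with points coloured where the unadjusted p was under 0.05 (red higher, blue lower) and values past 4 drawn at 4. Primary granule and chaperone genes lie furthest to the right, with medians of 0.68 and 0.62, and plasmacytoid dendritic cell genes furthest to the left, with a median of -1.10.

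Chaperone genes stood higher after 5-azacitidine. Chaperones fold new and damaged proteins. Many of their genes respond to heat and misfolded protein through the factor Hsf1, which binds repeats of the letters GAA in alternating orientation. Hsph1 (ENSMUSG00000029657.15, mm10 chromosome 5, 149614287 to 149636376, minus strand) encodes an HSP110 chaperone that exchanges the nucleotide of HSP70. Its level was 50.9, 67.3 and 75.6 CPM in the vehicle libraries and 189.7, 189 and 179 CPM in the 5-azacitidine libraries. The treated libraries lay close together and far above all vehicle libraries (log2 change 1.52 ± 0.19 SE, edgeR adjusted p = 0.0115, n = 3 a side). The rise itself ran from 1.38 to 1.71 over 21 alternative analyses, and the adjusted p passed the threshold in 17 of them. Those analyses include fits without single PD-901 or combination libraries, which hardly bear on the size of the rise. It did not pass without vehicle replicate 1 (edgeR adjusted p = 0.0802), without vehicle replicate 2 (0.119), without the 5 libraries of mixed sex-linked RNA (0.298) or with Lyz2 as a covariate (0.0702).

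The start of Hsph1 is shown with those of Chordc1, Hspe1 and Hspa1b because these chaperone genes were among the most different of the list and hold the letters to which Hsf1 binds; they were chosen with both facts known. The sequences are RefSeq windows from 250 bases before to 50 after the transcription start, build GRCm38.p6, in lower case with matches to GAANNTTC or TTCNNGAA in capitals. Each of these motifs is its own reverse complement, so both strands are covered, and matches may overlap each other. Hsph1 lies at chr5:149636287-149636586 on the minus strand, Chordc1 at chr9:18292017-18292316 on the plus strand, Hspe1 at chr1:55087898-55088197 on the plus strand and Hspa1b at chr17:34959189-34959488 on the minus strand.
Hsph1: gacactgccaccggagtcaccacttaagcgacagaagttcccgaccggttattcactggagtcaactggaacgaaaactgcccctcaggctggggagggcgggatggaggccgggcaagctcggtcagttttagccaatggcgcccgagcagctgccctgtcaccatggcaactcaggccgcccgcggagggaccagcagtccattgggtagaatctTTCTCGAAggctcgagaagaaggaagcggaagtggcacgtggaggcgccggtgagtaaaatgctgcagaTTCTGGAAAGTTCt
Chordc1: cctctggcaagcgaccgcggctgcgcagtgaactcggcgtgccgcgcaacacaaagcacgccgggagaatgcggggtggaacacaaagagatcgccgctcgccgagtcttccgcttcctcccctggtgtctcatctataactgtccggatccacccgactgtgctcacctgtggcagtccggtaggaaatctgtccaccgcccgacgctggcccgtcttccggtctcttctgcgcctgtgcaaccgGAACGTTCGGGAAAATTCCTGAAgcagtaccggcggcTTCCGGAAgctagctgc
Hspe1: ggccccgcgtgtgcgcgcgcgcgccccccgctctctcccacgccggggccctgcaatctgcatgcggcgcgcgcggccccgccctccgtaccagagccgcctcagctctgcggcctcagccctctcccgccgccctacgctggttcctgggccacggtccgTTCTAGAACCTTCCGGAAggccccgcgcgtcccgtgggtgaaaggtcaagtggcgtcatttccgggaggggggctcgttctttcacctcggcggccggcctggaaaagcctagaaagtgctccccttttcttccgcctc
Hspa1b: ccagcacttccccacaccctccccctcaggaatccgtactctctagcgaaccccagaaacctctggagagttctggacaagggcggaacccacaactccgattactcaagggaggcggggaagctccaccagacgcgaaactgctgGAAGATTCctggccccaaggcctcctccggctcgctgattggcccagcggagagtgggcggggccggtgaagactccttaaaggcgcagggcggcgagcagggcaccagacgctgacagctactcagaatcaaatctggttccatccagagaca
The Hsph1 window held 1 match to GAANNTTC and 2 to TTCNNGAA, Chordc1 held 2 and 3, Hspe1 held 1 and 2, and Hspa1b held 1 and 0. Of all 32851 RefSeq windows, 15.1% held at least 1 match to either motif. The window of Stip1, a further chaperone gene near the top of the ranking, held 0. Only 22 of the 28 chaperone genes had a window, under 80%, so a comparison of the list's share with other genes is void.

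Of 28 tested chaperone genes 26 were higher and 2 lower, with a median log2 difference of 0.62, where 49.2% of all genes were higher. At an unadjusted p under 0.05, 19 were higher and 1 lower, and in 18 the treated libraries lay wholly above the vehicle libraries, against 8.08% and 10.8% of all genes. DESeq2 called 17 higher and 1 lower, against 2.29% and 2.53% of all genes. When the 5 libraries of mixed sex-linked RNA were left out the median was 0.64, with 12 higher and 1 lower at an unadjusted p under 0.05, against 2.01% and 3.78% of all genes in that fit.

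Hsp90aa1, the inducible cytosolic HSP90, stood at 503, 632 and 683 CPM with vehicle and 1268, 1166 and 1460.5 CPM with 5-azacitidine. Every treated library was above every vehicle library, and the difference just missed the threshold (log2 1.10 ± 0.17, edgeR adjusted p = 0.0614). Chordc1, a partner of HSP90, was at 62.6, 76.3 and 74.9 CPM and 114, 140.3 and 158 CPM, also without overlap (log2 0.95 ± 0.17, edgeR adjusted p = 0.0914). The cochaperones of HSP70 and HSP90 had like values, with log2 differences of 0.79 for the HSP40 protein Dnaja1, 0.69 for the bridging protein Stip1 and 0.63 for the p23 gene Ptges3. Hspa1b, an inducible HSP70 gene, had the widest difference of the list, 5.17, 14.0 and 12.9 CPM against 119.7, 60.0 and 93.8 CPM. Its treated libraries were all higher but spread over a wide range (log2 3.09 ± 0.63, edgeR adjusted p = 0.113). Hspa1a, its near-identical neighbour, had 4.45, 7.05 and 8.77 CPM and 32.8, 28.2 and 25.7 CPM. Reads of this pair can be split wrongly between the genes, so the division between them is uncertain.

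The mitochondrial chaperonin was part of the same set. Hspd1, its HSP60 ring, stood at 232, 279.5 and 308 CPM with vehicle and 480.4, 520.0 and 543 CPM with the drug. Hspe1, its HSP10 lid and the head-to-head neighbour of Hspd1 on chromosome 1, stood at 44.0, 45.7 and 55.6 CPM and 75.8, 97.0 and 95.6 CPM. The groups of both genes were apart (log2 0.91 ± 0.18 and 0.88 ± 0.18; edgeR adjusted p = 0.0925 and 0.0933). Subunits of the cytosolic chaperonin differed less, with log2 values of 0.48 for Tcp1, 0.61 for Cct3 and 0.46 for Cct2. The constitutive HSP70 gene Hspa8 had 1532, 1651 and 2049 CPM and 2859.6, 2370.0 and 3173 CPM (log2 0.68 ± 0.18, edgeR adjusted p = 0.13). Other members hardly differed, among them Hsf1 itself (log2 0.07 ± 0.13), Hsf2 (0.12 ± 0.21) and the HSP40 gene Dnajb1 (0.08 ± 0.14). Cirbp, an RNA-binding protein known for being induced by cold, was the 1 member lower at an unadjusted p under 0.05. It stood at 65.6, 56.4 and 61.4 CPM with vehicle and 29.5, 38.2 and 31.8 CPM with 5-azacitidine, and all treated libraries were lower (log2 -0.88 ± 0.16, edgeR adjusted p = 0.0914). Its cold-inducible relative Rbm3 was level, at 287, 287 and 308 CPM and 299, 299 and 281 CPM. One tested member, Hspb1, had under 1 CPM in all 6 libraries, and Hspa4l was too low to be tested.

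**Figure D2:**
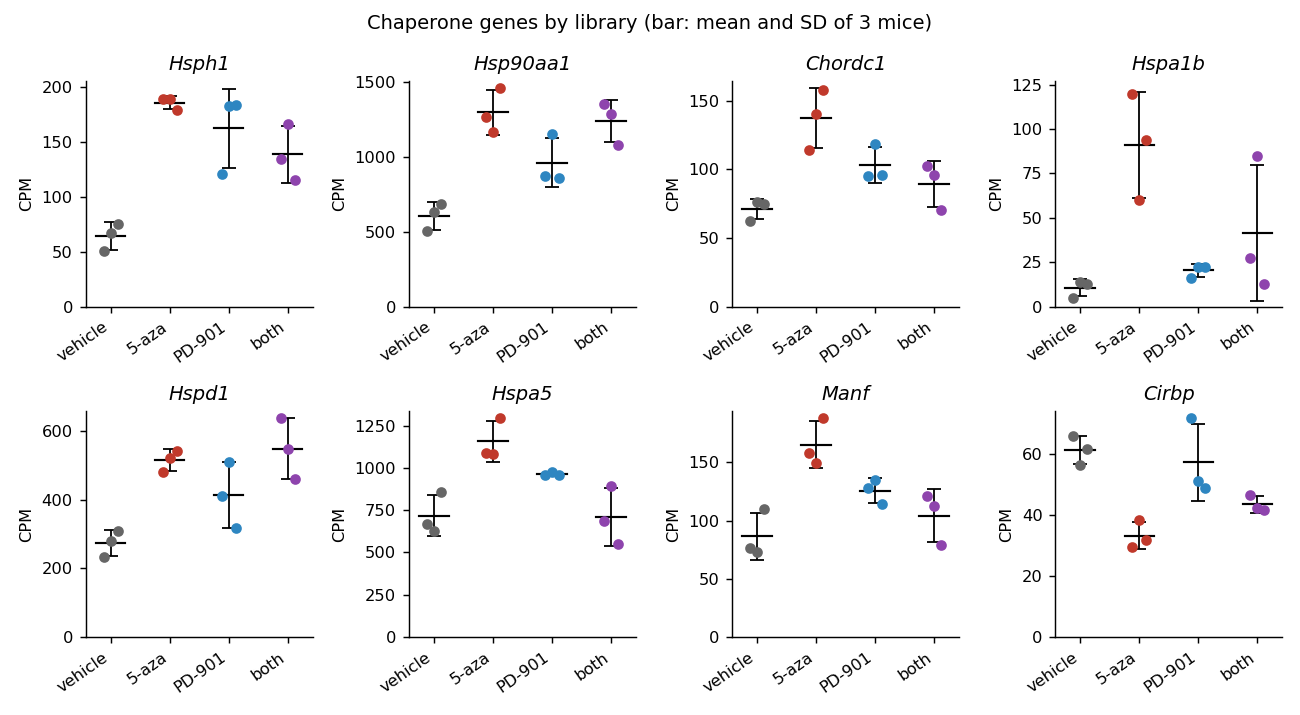
CPM of 8 chaperone and stress genes in each of the 12 libraries, with the mean and SD of 3 mice (5-aza is 5-azacitidine alone, both is 5-azacitidine with PD-901). For Hsph1 and Hsp90aa1 the 3 vehicle libraries are the lowest of the 12, and for Cirbp the 3 libraries of 5-azacitidine alone are the lowest.

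Genes of the endoplasmic reticulum, where secreted proteins fold, stood higher too. This list joins chaperones of that compartment with genes of the integrated stress response, which lowers translation through the factor Atf4. Of 23 genes 20 were higher and 3 lower, with a median log2 difference of 0.46, where 49.2% of all genes were higher. At an unadjusted p under 0.05, 13 were higher and 1 lower, against 8.08% and 7.22% of all genes. Manf, a secreted protein of stressed cells, had 76.6, 72.7 and 109.8 CPM with vehicle and 158, 149.7 and 188 CPM with 5-azacitidine (log2 0.94 ± 0.18, edgeR adjusted p = 0.0925). Creld2 had 49.4, 41.9 and 57.5 CPM and 96.1, 82.6 and 127 CPM (log2 1.04 ± 0.22, edgeR adjusted p = 0.0946). Hspa5, the HSP70 of the endoplasmic reticulum also called BiP, had 665, 629 and 856 CPM and 1089, 1084 and 1297 CPM (log2 0.69 ± 0.17, edgeR adjusted p = 0.13). All 3 genes had groups without overlap. The same held for the chaperones Hsp90b1, Calr, Pdia4 and Dnajb11, with log2 differences of 0.70, 0.78, 0.76 and 0.58.

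The factors that drive such responses were close to vehicle levels. Atf4 had a log2 difference of 0.10 ± 0.18, Ddit3, which encodes CHOP, 0.20 ± 0.26, and Xbp1 0.28 ± 0.16. Asns, the asparagine synthetase that Atf4 controls, stood at 59.8, 66.5 and 57.3 CPM and 105, 108 and 133 CPM (log2 0.92 ± 0.23, edgeR adjusted p = 0.13). Atf3, an early stress factor, lay lower, at 10.4, 11.1 and 21.6 CPM and 3.17, 9.59 and 4.72 CPM. DESeq2 called 10 members higher and 0 lower, against 2.29% and 2.53% of all genes. Without the 5 libraries of mixed sex-linked RNA the median was 0.68, and with a sex marker covariate it was 0.44.

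Plasmacytoid dendritic cell genes lay lower in every case. These cells make type I interferon in response to viral nucleic acid and depend on the factors Tcf4, Irf8, Spib and Runx2. All 26 tested genes had a negative log2 difference, with a median of -1.10, where 50.8% of all genes had a negative one. At an unadjusted p under 0.05 there were 19, and for 18 the treated libraries lay wholly below the vehicle libraries, against 7.22% and 9.77% of all genes. The summed level of the list was 954, 1127 and 1279 CPM with vehicle and 505, 793 and 673 CPM with 5-azacitidine. Of its members, Dntt, Ly6d and Blnk also stand in the B lymphocyte precursor list and Runx2 in the stromal list. Without the 5 libraries of mixed sex-linked RNA all 26 had a negative difference, with a median of -1.26, in a fit that cannot separate drug from sex. With a sex marker covariate the median was -0.82. DESeq2 called 11 members lower, against 2.53% of all genes, while edgeR called 0.

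Siglech, a surface lectin that defines mouse plasmacytoid dendritic cells, stood at 64.8, 73.9 and 76.9 CPM with vehicle and 6.79, 21.5 and 17.7 CPM with the drug. The treated libraries were all far lower, replicate 1 the lowest (log2 -2.23 ± 0.53, edgeR adjusted p = 0.13). Pacsin1, an endocytic adaptor strongly expressed in these cells, had 10.6, 12.1 and 13.8 CPM and 1.52, 3.01 and 3.01 CPM (log2 -2.27 ± 0.38, edgeR adjusted p = 0.0914). Runx2, a factor of bone-forming cells and of plasmacytoid dendritic cells, was tight within both groups, at 90.1, 96.4 and 92.2 CPM and 40.5, 41.3 and 45.7 CPM (log2 -1.13 ± 0.20, edgeR adjusted p = 0.0914). Ccr9, the receptor that leads these cells to the gut, had 14.6, 21.3 and 22.9 CPM and 3.43, 4.64 and 8.71 CPM (log2 -1.80 ± 0.39, edgeR adjusted p = 0.0967). In each of these 4 genes the groups were apart. Cd209d was at 5.11, 3.30 and 2.57 CPM with vehicle and 0, 0.0627 and 0.324 CPM with 5-azacitidine, so it was near or at 0 in the treated libraries. Tcf4, the master regulator, had a smaller difference, 63.2, 89.6 and 91.4 CPM against 46.2, 54.0 and 43.7 CPM (log2 -0.76 ± 0.20), and Spib, an Ets factor, had a log2 difference of -1.14 ± 0.41. The inhibitory receptor gene Lair1 and the interleukin 3 receptor gene Il3ra lay near 0, with log2 differences of -0.11 and -0.11.

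Monocyte and conventional dendritic cell genes were lower as well. Of 26 monocyte genes 25 were lower, with a median log2 difference of -0.67, where 50.8% of all genes were lower. At an unadjusted p under 0.05, 12 were lower, against 7.22% of all genes. Fn1, the matrix protein fibronectin, which marrow monocytes transcribe strongly, stood at 984, 985 and 1070.4 CPM with vehicle and 423, 521 and 295 CPM with 5-azacitidine (log2 -1.29 ± 0.24, edgeR adjusted p = 0.0914). Irf8, the factor that directs progenitors to monocytes and dendritic cells, stood at 349.5, 417 and 487 CPM and 173, 208 and 168 CPM (log2 -1.19 ± 0.23, edgeR adjusted p = 0.0925). Both had groups without overlap. The lysosomal pore protein gene Mpeg1 had 840.3, 869 and 1163 CPM and 434, 765 and 439 CPM, with 5-azacitidine replicate 2 nearest to the vehicle libraries. That replicate was the highest treated library for most monocyte genes. Csf1r, the receptor for macrophage colony-stimulating factor, stood at 299, 319 and 446 CPM and 165, 339 and 173 CPM, and in replicate 2 it was within the vehicle range. Ly6c2, the surface marker of inflammatory monocytes, was level (log2 -0.01 ± 0.19), as was the integrin gene Itgam (-0.08 ± 0.22). Vcan, a matrix proteoglycan, was the 1 member with a positive difference, 0.57 ± 0.47. The summed list level was 10435, 10271 and 12976 CPM with vehicle and 6378, 9603 and 7458 CPM with the drug. Leaving out 5-azacitidine replicate 2 placed Fn1, Irf8, Mpeg1, Cx3cr1, Csf1r, Nr4a1 and Ace past the edgeR threshold, all 7 lower. Over all genes that fit called 32 higher and 74 lower. Dropping the treated library that was highest for most monocyte genes widens their difference, and the fit of all libraries called 0 of the list. The list median was -0.89 without the 5 libraries of mixed sex-linked RNA and -0.52 with a sex marker covariate.

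Of 28 genes of conventional dendritic cells and MHC class II presentation, 23 were lower, with a median of -0.39. At an unadjusted p under 0.05, 6 were lower, against 7.22% of all genes. Kmo, a kynurenine pathway enzyme, had 29.9, 38.1 and 41.8 CPM with vehicle and 9.83, 16.7 and 12.9 CPM with 5-azacitidine (log2 -1.48 ± 0.27, edgeR adjusted p = 0.0914). Flt3, the receptor of dendritic cell progenitors and early multipotent cells, had 36.7, 41.7 and 49.7 CPM and 21.2, 17.4 and 20.7 CPM (log2 -1.11 ± 0.22, edgeR adjusted p = 0.0933). Both genes had treated libraries wholly below vehicle. The list's summed level overlapped between the groups, at 3993, 4399 and 7151 CPM and 3058, 6381 and 3872 CPM, and was highest in vehicle replicate 3 and 5-azacitidine replicate 2. The median of this list ran from -1.05 to -0.09 over 21 alternative analyses, with -0.69 without the 5 libraries of mixed sex-linked RNA and -0.18 with a sex marker covariate. The list of marrow macrophage and complement genes followed the same 2 libraries, at 1588, 1765 and 3467 CPM and 1268, 2939 and 1576 CPM, and had a median of -0.25, which turned positive in 3 of 21 alternative analyses.

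Primary granule genes, made at the promyelocyte stage when neutrophils begin to form, were higher. All 16 tested members had a positive log2 difference with a median of 0.68. At an unadjusted p under 0.05, 12 were higher, against 8.08% of all genes. Ctsg, the granule protease cathepsin G, stood at 241, 249 and 399 CPM with vehicle and 727, 508 and 821 CPM with 5-azacitidine. The treated libraries lay above all vehicle libraries (log2 1.21 ± 0.24, edgeR adjusted p = 0.0925). Ms4a3, a membrane protein of granulocyte and monocyte progenitors, had 124, 137 and 155 CPM and 247, 218 and 433 CPM (log2 1.11 ± 0.23, edgeR adjusted p = 0.0946). Prss57, a granule protease, had 37.3, 38.6 and 35.6 CPM and 82.4, 47.6 and 93.8 CPM (log2 1.01 ± 0.21, edgeR adjusted p = 0.0955). Prtn3, proteinase 3, had 885, 823 and 957 CPM and 1824, 1219 and 2666 CPM (log2 1.10 ± 0.26, edgeR adjusted p = 0.118). For all of these 5-azacitidine replicate 2 was the lowest treated library. Elane, neutrophil elastase, and Mpo, myeloperoxidase, had log2 differences of 0.76 and 0.53. Without 5-azacitidine replicate 2 edgeR called 6 members, Ctsg, Ms4a3, Prss57, Prtn3, Elane and Gfi1, all higher, among 32 higher and 74 lower over all genes. Dropping the lowest treated library widens the difference, and the fit of all libraries called 0 of the list. Without the 5 libraries of mixed sex-linked RNA the median was 0.91, and with a sex marker covariate it was 0.48. DESeq2 called 9 members higher, against 2.29% of all genes. One of the members, Calr, also stands in the list of endoplasmic reticulum genes.

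Later neutrophil stages differed little. Secondary granule genes had a median log2 difference of 0.13 over 18 genes, with 0 higher and 1 lower at an unadjusted p under 0.05, and the median turned negative in 3 of 21 alternative analyses. Mature neutrophil genes had a median of -0.02 over 22 genes, with 2 higher and 1 lower, against 8.08% and 7.22% of all genes. Il1r2, the decoy receptor for interleukin 1, stood at 74.4, 51.3 and 34.7 CPM with vehicle and 49.9, 99.9 and 107 CPM with the drug, and its groups overlapped.

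**Figure D3:**
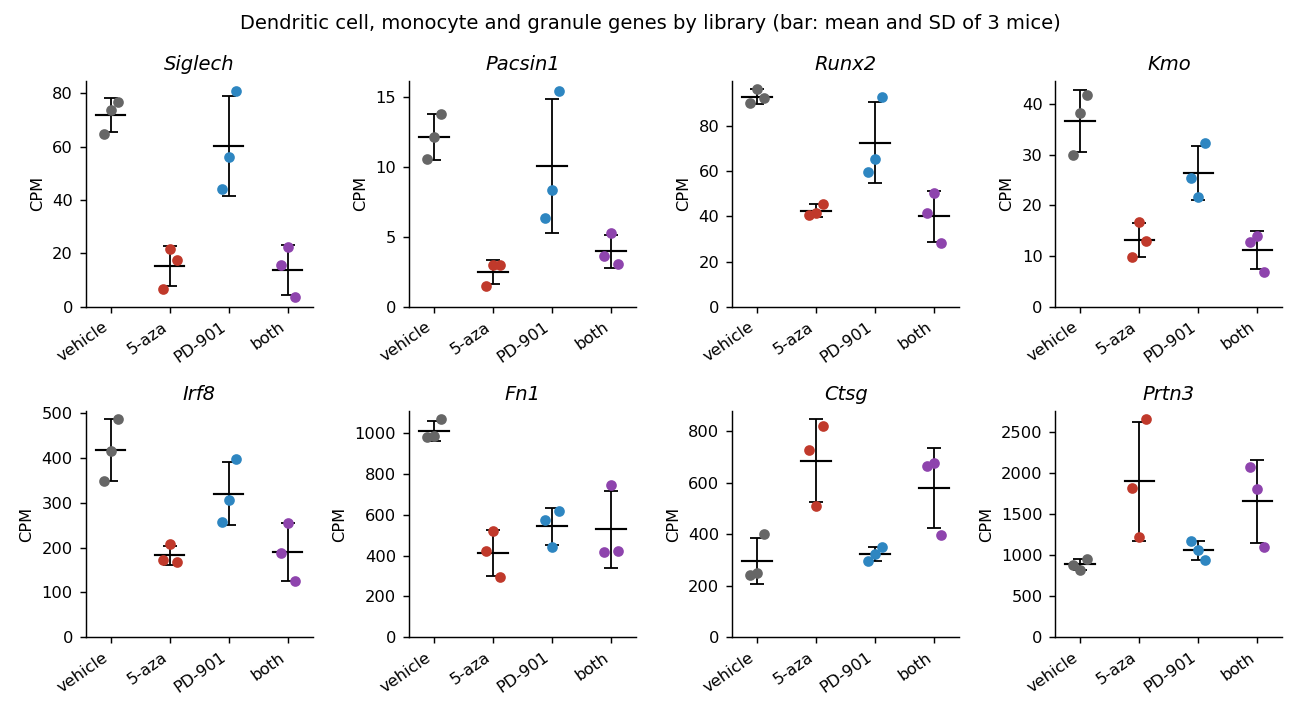
CPM of 8 genes of dendritic cells, monocytes and neutrophil precursors in each of the 12 libraries, with the mean and SD of 3 mice (5-aza is 5-azacitidine alone, both is 5-azacitidine with PD-901). The 5-azacitidine libraries lie wholly below the vehicle libraries for Siglech, Pacsin1, Runx2, Kmo, Irf8 and Fn1 and wholly above for Ctsg and Prtn3.

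Interferon-stimulated genes, which type I interferon induces for antiviral defence, were lower in 40 of 41 members, with a median log2 difference of -0.52. At an unadjusted p under 0.05, 13 were lower, against 7.22% of all genes. Mx1, an antiviral GTPase, had 29.4, 33.0 and 60.4 CPM with vehicle and 7.45, 19.6 and 6.25 CPM with 5-azacitidine (log2 -1.89 ± 0.47, edgeR adjusted p = 0.13). Ddx60, a helicase that assists viral RNA sensing, had 38.9, 39.8 and 34.7 CPM and 8.90, 18.5 and 23.2 CPM (log2 -1.16 ± 0.28, edgeR adjusted p = 0.13). Both had groups without overlap. The summed level of the list was 1981, 2487 and 2906 CPM and 1428, 2359 and 1554 CPM, with 5-azacitidine replicate 2 inside the vehicle range. Without the 5 libraries of mixed sex-linked RNA, that replicate among them, the median was -0.93. Dropping the treated library with the highest list sum widens the difference. With a sex marker covariate the median was -0.37. Irf7, the factor that amplifies interferon and belongs to the plasmacytoid list as well, stood at 86.6, 115 and 178 CPM and 47.1, 121 and 51.7 CPM. Of 21 genes of cytosolic nucleic acid sensing 16 were lower, with a median of -0.34. At an unadjusted p under 0.05, 8 were lower, against the same 7.22% of all genes. Dhx58, the RNA sensor LGP2, stood at 41.2, 50.8 and 52.9 CPM and 27.9, 37.7 and 25.2 CPM, without overlap (log2 -0.68 ± 0.19, edgeR adjusted p = 0.15).

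Genes of cell division were higher by small amounts. Of 36 genes of S phase and DNA replication 33 were higher, with a median log2 difference of 0.35. At an unadjusted p under 0.05, 22 were higher, against 8.08% of all genes. Ccne2, the cyclin that starts DNA replication, stood at 41.1, 44.8 and 32.8 CPM with vehicle and 62.6, 59.2 and 63.9 CPM with the drug (log2 0.65 ± 0.16, edgeR adjusted p = 0.13). The groups were apart. Of 27 genes of G2 and mitosis 26 were higher with a median of 0.26, and Aurka, the mitotic kinase, had 69.3, 83.1 and 67.6 CPM and 113, 98.0 and 135 CPM (log2 0.66 ± 0.14, edgeR adjusted p = 0.0963). The proliferation marker Mki67 overlapped, at 809, 941 and 641 CPM and 1232, 746 and 753 CPM. Ribosome biogenesis genes had a median of 0.38, with 27 of 28 higher, and nuclear genes of oxidative phosphorylation 0.36, with 31 of 32 higher. At an unadjusted p under 0.05 these lists held 14 and 17 higher, against the same 8.08% of all genes. Npm1, which encodes the nucleolar protein nucleophosmin, had 459, 525 and 599 CPM and 670.0, 858 and 898 CPM, without overlap. Erythroid genes were higher in 34 of 37 members with a median of 0.57, and their summed level was 4905, 5809 and 3559.9 CPM with vehicle and 7350.2, 7316 and 6984 CPM with 5-azacitidine. Erfe, the hormone by which erythroblasts lower hepcidin, stood at 0.770, 1.04 and 1.18 CPM and 7.45, 2.01 and 2.82 CPM, without overlap (log2 2.02 ± 0.53, edgeR adjusted p = 0.132). Hba-a2, an adult alpha globin gene whose reads its copy Hba-a1 can share, stood at 21.4, 20.9 and 14.7 CPM and 47.5, 49.8 and 68.7 CPM. Without the 5 libraries of mixed sex-linked RNA the members higher at an unadjusted p under 0.05 were 0 for S phase, 1 for G2 and mitosis, 3 for ribosome biogenesis, 2 for oxidative phosphorylation and 1 for erythroid genes, where 2.01% of all genes were higher in that fit, and the medians were 0.23, 0.25, 0.35, 0.29 and 0.33.

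Genes of methylation lay close to vehicle levels, while several that handle the drug were higher. Dnmt1, the maintenance methyltransferase that the drug traps as protein, stood at 343, 404 and 350.4 CPM with vehicle and 499, 314 and 331 CPM with 5-azacitidine (log2 0.06 ± 0.18). Its groups overlapped, as did those of the partner Uhrf1, with a log2 difference of 0.20 ± 0.14. Dnmt3a, which sets new methylation, had -0.22 ± 0.17. Dnmt3b, its relative in early progenitors, had 15.1, 10.9 and 13.6 CPM and 8.31, 9.65 and 7.83 CPM, with all treated libraries lower (log2 -0.62 ± 0.31, edgeR adjusted p = 0.356). Over the 24 genes of methylation and demethylation the median was 0.06, with 2 higher and 0 lower at an unadjusted p under 0.05. Among 20 genes of nucleoside uptake and metabolism the median was 0.23, with 8 higher and 2 lower at an unadjusted p under 0.05, against 8.08% and 7.22% of all genes. Without the 5 libraries of mixed sex-linked RNA 0 were higher and 2 lower, by edgeR at the same unadjusted p. Of the 8, Rrm1, Rrm2 and Tyms also stand in the S phase list. Slc29a1, the nucleoside carrier ENT1, stood at 58.0, 73.7 and 74.2 CPM and 89.0, 103 and 77.0 CPM, without overlap (log2 0.39 ± 0.18, edgeR adjusted p = 0.31). Uck1 and Uck2, the kinases that first phosphorylate the drug, had log2 differences of 0.20 ± 0.13 and 0.32 ± 0.14. Rrm2, the small subunit of ribonucleotide reductase, through which the drug reaches DNA, stood at 303, 323 and 248 CPM and 418, 390.4 and 463 CPM, without overlap (log2 0.54 ± 0.14, edgeR adjusted p = 0.13). Samhd1, a hydrolase of deoxynucleotides, lay lower, at 755, 708 and 665 CPM and 415, 648 and 468 CPM. Cda, the deaminase that inactivates cytidine analogues, had 0, 5 and 4 counts with vehicle and 29, 14 and 5 with 5-azacitidine (edgeR adjusted p = 0.24). With PD-901 it had 0 counts in each library, and with both drugs 115, 21 and 76 counts (edgeR adjusted p = 0.00574).

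Genes that DNA methylation keeps silent outside the germ line are those at which a gain of RNA would be looked for after a hypomethylating agent. Of 28 such genes listed only 6 had enough counts to be tested, 3 higher and 3 lower, with 0 at an unadjusted p under 0.05. Hormad1, a meiotic chromosome protein, was at 0, 0.0493 and 0.337 CPM with vehicle and 1.71, 0.188 and 0.370 CPM with the drug, and Ddx4, a germ cell helicase, at 1.21, 1.97 and 2.49 CPM and 2.24, 0.689 and 1.07 CPM. The groups overlapped for both genes. Imprinted genes, whose methylation marks the parent of origin, had a median of 0.02 over 20 genes. At an unadjusted p under 0.05, 1 was higher and 2 lower, against 8.08% and 7.22% of all genes. Over the whole table, genes with at most 3 counts in the vehicle libraries together and at least 10 in the 5-azacitidine libraries, with at least 2 in each, numbered 138, of which 41 were protein-coding. The mirror image, near silence in the treated libraries, held 208 genes, of which 60 were protein-coding. The vehicle libraries held 62400724 counts together and the 5-azacitidine libraries 54949307, and since the limits are on raw counts the deeper group has more chances to reach 10, so the numbers 138 and 208 cannot be compared directly. Nutm1, chosen from the 138 after its counts were seen, had 0, 2 and 0 counts with vehicle and 53, 6 and 35 with 5-azacitidine. It had 5, 15 and 0 with PD-901 and 107, 72 and 204 with both drugs. Nutm1 is normally a testis gene. The limits that chose the 138 genes largely fix its separation from vehicle, so that separation is no added result. All libraries with both drugs were above those with PD-901.

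Genes of the pathway that the mutation drives lay mostly near vehicle levels, with some lower. Ptpn11 was at 139.9, 149.7 and 135 CPM with vehicle and 149, 125 and 133 CPM with 5-azacitidine (log2 -0.06 ± 0.12). Gene counts do not separate the mutant from the normal allele. Over 36 genes of Shp2, Ras and the GM-CSF receptor the median was -0.10, with 0 higher and 5 lower at an unadjusted p under 0.05, against 8.08% and 7.22% of all genes. Csf2ra, the alpha chain of the GM-CSF receptor, stood at 733, 611 and 558 CPM and 405, 472 and 435 CPM, without overlap (log2 -0.54 ± 0.18, edgeR adjusted p = 0.184). The 23 ERK output genes had a median of -0.23 (-0.05 with a sex marker covariate), with 0 higher and 3 lower. Dusp6, the ERK phosphatase that ERK induces, overlapped, at 209, 173 and 218 CPM and 116, 233 and 164 CPM. Immediate early genes, which also respond to cell handling, had a median of -0.37, with 1 higher and 2 lower. The 30 NF-kB targets had a median of -0.33, with 1 higher and 4 lower. Nfkbiz, an inhibitor-like regulator of that factor, stood at 101, 103 and 105 CPM and 41.5, 69.1 and 49.8 CPM, without overlap (log2 -0.95 ± 0.24, edgeR adjusted p = 0.131).

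Damage and death genes had list medians near that of all genes. Targets of p53 had a median of 0.03 over 25 genes. At an unadjusted p under 0.05, 3 were higher and 2 lower, against 8.08% and 7.22% of all genes. Cdkn1a, the p53-induced inhibitor of cyclin-dependent kinases, overlapped, at 17.3, 22.8 and 25.6 CPM with vehicle and 25.3, 31.7 and 20.3 CPM with the drug. The BCL2 family had a median of 0.00 over 19 genes, with 1 higher and 1 lower. Glycolysis genes had a median of 0.22 (0.07 with a sex marker covariate), with 10 of 30 higher at an unadjusted p under 0.05, against the same 8.08%.

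Markers of the other marrow cells gave the following. B lymphocyte precursor genes were lower in 26 of 28 members, with a median of -0.50. At an unadjusted p under 0.05, 4 were lower, against 7.22% of all genes. In the list sum 5-azacitidine replicate 2 was at the vehicle level (1442, 1450.2 and 1428 CPM and 937, 1447 and 1246 CPM). With Lyz2 as a covariate the median was -0.21. NK cell genes had a median of -0.54, which was -1.16 without the 5 libraries of mixed sex-linked RNA and -0.10 with a sex marker covariate. Mature B cell genes had a median of -0.19 and T cell genes 0.08, and over 21 alternatives these ran from -0.37 to 0.05 and from -0.21 to 0.42. Megakaryocyte genes were lower in 22 of 25 members with a median of -0.38 (-0.15 with Lyz2 as a covariate), and Itgb3, the platelet integrin beta chain, had 116, 103 and 60.6 CPM and 57.4, 44.8 and 64.4 CPM, with vehicle replicate 3 inside the treated range. Basophil, mast cell and eosinophil genes had a median of 0.20, and stem and progenitor genes -0.07. Stromal genes had a median of -0.45, with 2 higher and 6 lower at an unadjusted p under 0.05, against 8.08% and 7.22% of all genes. Cxcl12, the chemokine by which marrow stroma holds stem cells, was at 41.3, 27.8 and 37.2 CPM with vehicle and 17.0, 14.4 and 14.7 CPM with 5-azacitidine (log2 -1.21 ± 0.28, edgeR adjusted p = 0.117). Pdgfrb, a receptor of perivascular cells, was at 4.56, 2.61 and 3.12 CPM and 1.25, 1.57 and 1.34 CPM (log2 -1.30 ± 0.36, edgeR adjusted p = 0.137). In both the treated libraries were wholly lower, while the summed level of the stromal list overlapped, at 799, 772 and 821 CPM and 737, 756 and 858 CPM.

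Outside the lists a few genes ranked with the leading chaperones. Ap3s1, which encodes the small chain of the AP-3 adaptor on lysosome-bound vesicles, stood at 159.6, 154 and 168 CPM with vehicle and 286, 253 and 371 CPM with 5-azacitidine (log2 0.92 ± 0.16, edgeR adjusted p = 0.0914). Gtf2e2, a subunit of the general transcription factor TFIIE, stood at 26.2, 29.6 and 31.0 CPM and 50.6, 50.5 and 60.9 CPM (log2 0.90 ± 0.16, edgeR adjusted p = 0.0914). Both were higher in every treated library. Adam11, of the ADAM family of membrane proteins, was lower, at 11.7, 19.2 and 15.7 CPM and 2.04, 1.82 and 2.69 CPM (log2 -2.82 ± 0.49, edgeR adjusted p = 0.0914). Fmnl2, a formin that builds actin filaments, had 58.6, 49.8 and 42.0 CPM and 22.7, 26.3 and 22.3 CPM (log2 -1.08 ± 0.20, edgeR adjusted p = 0.0914). The lower genes of this set had no overlap between the groups either.

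Among the largest differences with no overlap and an unadjusted p under 0.01, higher genes included Ggt1, the gamma-glutamyl transferase of glutathione breakdown (log2 2.08), Prok2, a prokineticin made by neutrophils (2.02), Upp1, uridine phosphorylase (1.55), Fkbp11, a prolyl isomerase of the secretory pathway (2.07), and Ackr1, the atypical chemokine receptor (1.62). Dmkn, Dusp8 and Samd11 followed with 1.70, 1.53 and 1.49. Lower genes included the receptor phosphatase Ptprf (-2.64), the collagen receptor Ddr1 (-1.90), the inhibitory receptor Lag3 (-1.83), the paired receptor Cd300c (-2.06) and Glcci1 (-2.14). Xkrx, Klk1 and Sned1 followed with -2.27, -2.10 and -1.80. Adjusted p values of these 16 genes ran upward from 0.0925, and none passed the edgeR threshold.

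The combination was compared with PD-901 alone to see whether 5-azacitidine had the same effect in other mice. In this comparison edgeR called 1191 genes (6.82%), 296 higher (1.69%) and 895 lower (5.12%), and 61.8% of all genes had the same sign as against vehicle. The count was 421, 778 and 718 without PD-901 replicates 1, 2 and 3, and 386 and 482 without combination replicates 1 and 3. It was 384 without the 5 libraries of mixed sex-linked RNA, and all 3 combination libraries held Y-linked RNA only. Plasmacytoid dendritic cell genes kept their sign in 24 of 26 cases, had a median log2 difference of -1.34 and gave 12 genes past the threshold, all lower. Siglech was among these, and fell to 15.6, 22.4 and 3.75 CPM with both drugs from 44.0, 56.1 and 80.8 CPM with PD-901 (log2 -2.12, edgeR adjusted p = 0.033). Runx2, Pacsin1, Ccr9 and Spib fell as well, with log2 changes of -0.86, -1.34, -1.56 and -2.86 and edgeR adjusted p values of 0.0162, 0.036, 0.0247 and 0.00399. Outside that list, Kmo fell from 25.4, 21.7 and 32.2 CPM to 12.7, 14.0 and 6.82 CPM (log2 -1.25, edgeR adjusted p = 0.0118) and Fmnl2 from 48.3, 40.6 and 43.6 CPM to 10.5, 18.4 and 17.4 CPM (log2 -1.52, edgeR adjusted p = 0.00193). In these genes both drugs together gave the lower values of the pair of groups, as 5-azacitidine alone did. Ctsg rose, from 296, 324 and 351 CPM to 664, 675 and 398 CPM (log2 0.84, edgeR adjusted p = 0.0449), while Hdc, the histidine decarboxylase gene of the same primary granule list, fell (log2 -1.16, edgeR adjusted p = 0.00376). Hdc also stands in the basophil, mast cell and eosinophil list, which had a median of -0.93 here, with 0 called higher and 7 lower. The other 14 members of the primary granule list did not pass, 11 of 16 were higher, and its median was 0.34. S phase genes gave 12 members higher.

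Chaperone genes gave 0 of 28 past the edgeR threshold in the combination against PD-901, with 9 higher and 1 lower at an unadjusted p under 0.05 and a median of 0.21. Hsph1 stood at 121, 183 and 183 CPM with PD-901 and 135, 166 and 115 CPM with both drugs. Its groups overlapped, and all 6 libraries lay above the vehicle libraries (log2 -0.23, edgeR adjusted p = 0.543). Hspa5 stood at 960.3, 977 and 956 CPM and 684, 891 and 553 CPM. The genes of endoplasmic reticulum stress had a median of -0.24, with 7 of 23 keeping their sign. Over all genes of this comparison 21.7% had an unadjusted p under 0.05, 9.32% higher and 12.4% lower.

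**Figure D4:**
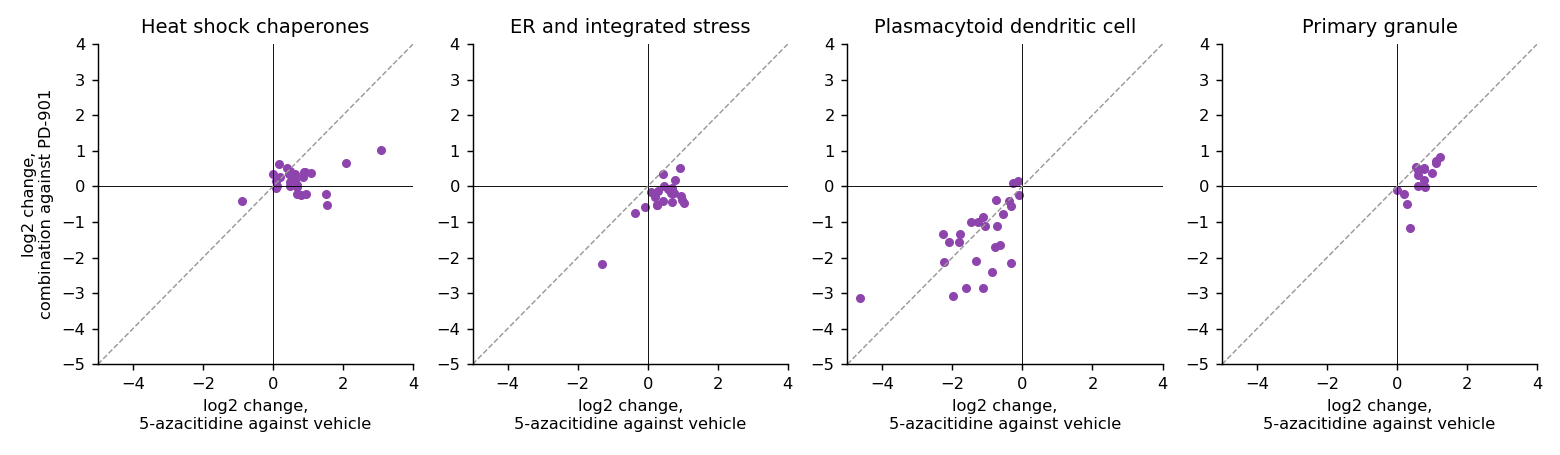
Each point is a gene of the named list, with its log2 difference between 5-azacitidine and vehicle on the horizontal axis and between the combination and PD-901 on the vertical axis (3 mice in each of 4 groups, no library shared between the axes); the dashed line marks equal values. Plasmacytoid dendritic cell genes lie about the line with medians of -1.10 and -1.34, most chaperone and endoplasmic reticulum genes lie below it with medians of 0.62 and 0.21, and of 0.46 and -0.24, and primary granule genes have medians of 0.68 and 0.34.

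The difference between the 2 effects was tested as an interaction. With edgeR 0 genes passed (0%), 1871 (10.7%) had an unadjusted p under 0.05, DESeq2 called 288 and limma-voom 0. The edgeR count was 12 without vehicle replicate 3, 150 without 5-azacitidine replicate 1, 20 without combination replicate 2, and 1 without PD-901 replicate 1 or without combination replicate 3. It was 5 without the 5 libraries of mixed sex-linked RNA. Hsph1 and Dusp6 came closest, with interaction values of -1.75 ± 0.26 and -2.47 ± 0.37 on the log2 scale (edgeR adjusted p = 0.06 for each). Of the chaperone genes 10 were lower and 1 higher in the interaction at an unadjusted p under 0.05, and of the endoplasmic reticulum and stress genes 12 and 0, against 6.21% and 4.49% of all genes. Of the primary granule genes 5 of 16 were lower and 0 higher by edgeR at that unadjusted p, with a median interaction of -0.42. The interaction subtracts the same difference against vehicle on which Hsph1 ranked first, and the lists were chosen with earlier results known. Genes picked for a rise against vehicle lean to negative interaction values. These counts and values therefore cannot decide whether the 2 effects differ. Over all genes 48.2% of interaction values were positive and 51.8% negative. Plasmacytoid dendritic cell genes had a median interaction of -0.03, with 3 of 26 lower. Siglech had 0.10 ± 0.72, an estimate whose error leaves room for a difference in either direction. Mature neutrophil genes had a median of -1.42, with 18 of 22 lower at an unadjusted p under 0.05. In the combination against PD-901 all 22 were lower, 16 of them past the edgeR threshold.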

How the data were processed

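Raw read counts per gene of 12 libraries were deposited by the authors, whole numbers for 56350 genes. Per the submitters' processing notes bcl2fastq, STAR 2.7.2a and featureCounts of Subread 1.6.5 were used with mm10. Neither the annotation nor the strand setting is given in the sources used here. Overlapping and antisense genes are therefore uncertain. Gene names and coordinates are those of the deposited table, and promoter windows those of RefSeq GRCm38.p6. Groups were taken from the treatment named in the labels, with replicate numbers in accession order.

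Genes were kept by filterByExpr (minimum count 10, total 15), scaled with TMM and fitted with edgeR 4.0.16 in R 4.3.3, using 12 libraries and 4 group means (8 residual degrees of freedom, biological coefficient of variation 0.328). Quasi-likelihood F tests were adjusted by Benjamini and Hochberg over all 17475 genes with a threshold of 0.05. Total counts ran from 15356919 to 27148190, so low genes carry large counting error. Replicate pairs differed by more than sampling noise. DESeq2 1.42.0, limma 3.58.1 (voom), other filters and scaling, fewer libraries and covariates were alternatives. Tested on simulated data for 5-azacitidine against vehicle (16661 genes), the fit recovered 44% of 100 genes changed 2-fold and 65% of 100 changed 4-fold, with 1 false call among 110. Simulated counts were drawn independently for each gene, without the differences between whole libraries seen here. These shares therefore need not hold for the real data.

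Members and gene lists were chosen with earlier results of these data known. Named genes were those past the test, the largest differences without overlap, the 10 lowest p values, up to 4 of each list by p and a fixed set of mutation, methylation and drug genes. Further list members were named after their values were seen, to show the range of a list.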

Additional observations from a re-analysis of the deposited data

How the results depend on the processing

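For 5-azacitidine against vehicle the count of 1 gene higher became 225 without a filter on low counts, 291 with DESeq2, 2 with limma-voom, 4 with only the 6 libraries compared, 4 without the 5 libraries of mixed sex-linked RNA, 0 with Lyz2 as a covariate and 0 to 32 when single libraries were left out. The count of 0 lower became 347, 322, 0, 3, 1 and 0 in the same order, and 0 to 74 without single libraries. The combination against PD-901, with 1191 genes, gave 2215 with DESeq2, 693 with a sex marker covariate, 384 without the 5 libraries, 156 with Lyz2 as a covariate and 386 to 1563 without single libraries. The interaction, with 0 genes, gave 400 without a filter, 288 with DESeq2, 5 without the 5 libraries and 0 to 150 without single libraries. The cause of these moves was not tested. The fits without the 5 libraries and with Lyz2 were chosen after seeing the data, and the former leaves 1 vehicle and 1 PD-901 library, each assumed to vary like the other groups. Against vehicle neither fit called a named gene other than the sex markers, so the direction of calls could not be compared. List medians kept their sign in 21 of 21 alternatives for chaperone (0.51 to 0.77), endoplasmic reticulum (0.44 to 0.68), plasmacytoid dendritic cell (-1.30 to -0.75), monocyte (-1.05 to -0.41), primary granule (0.48 to 0.91) and interferon genes (-0.93 to -0.34). Alternatives that leave out a single PD-901 or combination library hardly bear on these medians. The median changed sign in at least 1 alternative for macrophage (-0.70 to 0.18), secondary granule (-0.18 to 0.40), mature neutrophil (-0.23 to 0.25), T cell (-0.21 to 0.42), mature B cell (-0.37 to 0.05), basophil (-0.04 to 0.41), p53 (-0.04 to 0.16), imprinted (-0.06 to 0.10), methylation-silenced (-0.31 to 0.58) and BCL2 family genes (-0.13 to 0.09), so these lists have no stable direction against vehicle. No paired analysis was possible because the labels number the mice in 1 running series and give the groups no shared replicate numbers.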
